A study of Drosophila melanogaster with 20 samples.

Results

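Whole larvae of the severe P223L line were compared with control larvae of the fruit fly Drosophila melanogaster by RNA sequencing. P223L carries a single amino acid substitution in the mitochondrial carrier of S-adenosylmethionine (SAM), encoded by CG4743, and its genotype is labelled DmSAMC.P223L. The control carries no such change, and the labels give both groups the same genetic background, wDah. Larvae of both groups were 4 days old, raised at 25 °C on yeast, sugar and agar medium, and each group had 5 libraries of ribosomal RNA-depleted total RNA. SAMC-null (DnSAMC.M1fs;M39*, also wDah, 5 libraries), another line that the labels class as severe, was set against P223L directly. The line that the labels class as mild, I172G (DmSAMC.I172G, wDah, 5 libraries), enters 1 value below and an alternative fit. A gene was kept where 5 or more of the 10 P223L and control libraries (of 20 in all) had a normalised count of 10 or more, which gave 12208 of 14081 genes. The lines were made by genomic engineering, so a change of the carrier, any other difference between the lines and a difference in developmental stage at the same age cannot be told apart. The labels give neither the sex of the larvae nor the number per library, nor whether the replicates of a group are separate cultures. The p-values therefore measure only the spread between these libraries, which may be technical.

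SAM is made from methionine and ATP in the cytosol and is the methyl donor for most methylation reactions of the cell. The carrier exchanges it across the inner mitochondrial membrane, where SAM is used to methylate mitochondrial ribosomal RNA, to make coenzyme Q and, by a radical reaction, to make lipoic acid. Lipoic acid is the cofactor of pyruvate dehydrogenase and of oxoglutarate dehydrogenase in the tricarboxylic acid cycle, and the electron transport chain needs coenzyme Q and proteins translated on mitochondrial ribosomes. In larvae, growth, fat storage and the moult to the pupa draw on this respiration, and hormones of the insulin and ecdysone families set their pace.

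The summed normalised counts were 24787115 to 26077354 per P223L library and 33211877 to 35427525 per control library, on a scale shared by all libraries. A count of 10 or more was reached by 11043 to 11193 genes in P223L and by 12081 to 12341 genes in control. Control replicate 4 stood apart: 1319 genes lay more than 2-fold from the median of the other 4 controls, against 352 to 490 genes for the P223L libraries and 236 to 335 for any other control library. Of the tissues that whole larvae hold, neurons, muscle, gut and trachea were all represented by their markers in both groups. The fat body gene apolpp was abundant in both (157854 to 164266 counts in P223L and 486467 to 566467 in control), but 6 other fat body genes (Lsp1alpha, Lsp1beta, Lsp1gamma, Lsp2, Fbp1 and Fbp2) together held 63.9 to 326 counts in P223L and 3591100 to 4302460 in control. In RNA of whole larvae, fewer cells of a type and less RNA per cell cannot be told apart.

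P223L differed from control in most of the transcriptome. With limma on log2(normalised count + 1), 9606 of 12208 genes passed an adjusted p of 0.05 (78.7%), 4435 of them higher in P223L (36.3%) and 5171 lower (42.4%). A stricter test, limma's treat against a change of 2-fold, called 1165 genes higher (9.54%) and 2303 lower (18.9%). The libraries of the groups did not overlap in 68.2% of the genes. The median log2 fold change was -0.06, the quartiles were -0.89 and 0.52, and 5% of genes lay below -4.95 and 5% above 2.07. With a background this high, a call by itself says little about a gene, so sizes are given throughout and each list is read against these shares.

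**Figure D1:**
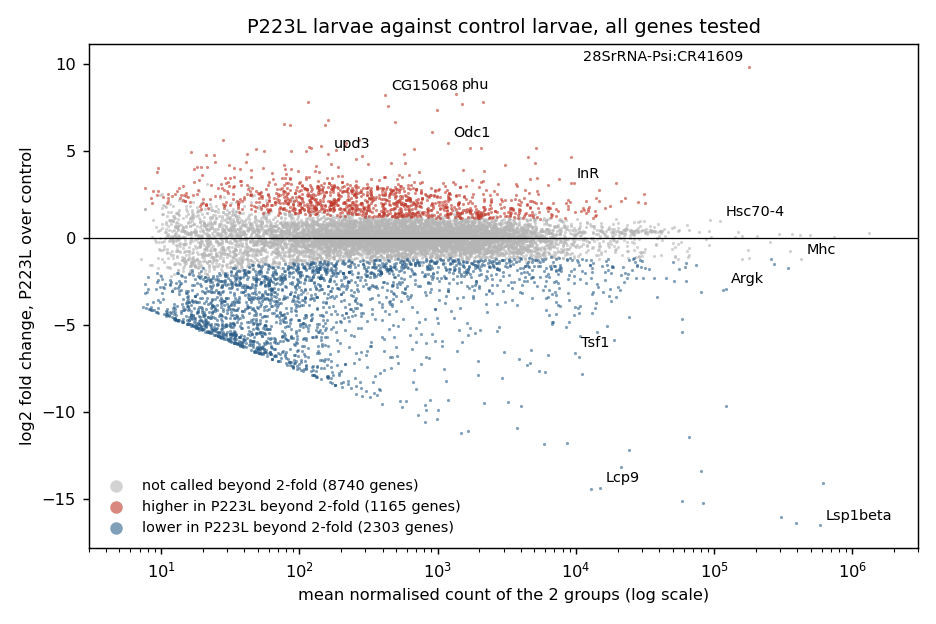
Each point is 1 of 12208 genes, with the mean normalised count of P223L and control on the x axis (log scale) and the log2 fold change of P223L over control on the y axis. Red points (1165 genes) were called higher beyond 2-fold and blue points (2303 genes) lower, and the largest decreases, such as Lsp1beta, reach much further from 0 than the largest increases.

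The transcript of the carrier was more abundant in P223L. CG4743 (FBgn0039357; BDGP6.54, chromosome 3R, 25679242 to 25680550, minus strand) had 249, 196, 184, 200 and 205 normalised counts in the P223L libraries, against 93.5, 124, 125, 149 and 133 in the control libraries. Every P223L library lay above every control library, and the log2 fold change was 0.73 ± 0.13 (SE; adjusted p = 0.000218). It was also above SAMC-null, where it had 112 ± 12.8 counts (SD, n = 5; log2 fold change 0.88 ± 0.10, adjusted p = 5.2e-06). A substitution need not change the transcript level, so this value does not check the label. Among 656 tested genes within 3 Mb of CG4743, 11.1% were called higher beyond 2-fold and 19.7% lower, near the shares over all genes.

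Genes of the reactions that make, use and consume SAM moved in both directions. Of 14 genes of the methionine cycle, transsulfuration and polyamine synthesis, 6 were called higher and 6 lower, with a median log2 fold change of 0.14. These counts are near the shares over all genes (36.3% and 42.4%). The largest increase was in Odc1, an ornithine decarboxylase that opens polyamine synthesis. Odc1 had 2166, 2493, 2382, 2390 and 2110 normalised counts in P223L, against 66.1, 24.4, 17.6, 192 and 57.4 in control, a log2 fold change of 5.49 ± 0.49 (adjusted p = 4.17e-07). The P223L libraries were close together and all far above the controls, of which replicate 4 was the highest. Its neighbour and paralogue Odc2 stood at 682 to 815 in P223L and at 35.8 to 461 in control (log2 fold change 2.68 ± 0.62), and reads that fit both genes may have been shared between them.

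Cbs, cystathionine beta-synthase, which leads homocysteine into cysteine synthesis, had 4678, 4758, 4640, 4905 and 4759 counts in P223L, against 998, 921, 1107, 881 and 1123 in control. These groups were 4.72-fold apart with little spread within either (log2 fold change 2.24 ± 0.07, adjusted p = 3.47e-11). The next enzyme of that branch went the other way: Eip55E, cystathionine gamma-lyase, fell to 2049 ± 128 in P223L, against 5294 ± 739 in control (SD, n = 5 in each group). Gnmt, glycine N-methyltransferase, which consumes surplus SAM, had 1434 to 1682 counts in P223L and 5034 to 8273 in control, a log2 fold change of -1.98 ± 0.11 (adjusted p = 3.92e-09). Sardh, the mitochondrial sarcosine dehydrogenase that takes up the product of Gnmt, fell by 1.13 on the log2 scale. Sam-S, the SAM synthetase, was modestly higher, at 21674 to 23618 in P223L and 13194 to 19209 in control (log2 fold change 0.53 ± 0.10).

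Serine synthesis feeds the folate and methionine cycles with carbon units. Of 8 genes of serine synthesis and the folate cycle, 4 were called higher and 4 lower, with a median log2 fold change of 0.18. The shares over all genes were 36.3% and 42.4%. Summed counts of the list were lower, at 15086 to 15771 in P223L and 18520 to 24841 in control. Among the increases were 2 enzymes of serine synthesis. CG11899, phosphoserine aminotransferase, had 961, 893, 882, 874 and 898 counts in P223L, against 110, 178, 89.2, 209 and 147 in control. All P223L libraries were far above all controls (log2 fold change 2.68 ± 0.19, adjusted p = 5.19e-08). CG6287, phosphoglycerate dehydrogenase, the first enzyme of the pathway, rose by 1.31 ± 0.15 (log2 fold change ± SE).

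Of 9 mitochondrial enzymes that use SAM, 6 were called higher and 0 lower, against 36.3% and 42.4% of all genes. Their median log2 fold change was 0.49. They included CG2453, the methyltransferase Coq5 of coenzyme Q synthesis (527 ± 60.0 counts in P223L and 338 ± 31.3 in control; SD, n = 5 in each group), mtTFB1, which methylates the small mitochondrial ribosomal RNA (1216 ± 84.1 and 815 ± 37.3), and CG11447, the RNA methyltransferase Mrm2 (log2 fold change 0.60 ± 0.12). None of the 9 passed the test beyond 2-fold. The largest change was that of rswl, whose log2 fold change was 0.94 ± 0.08.

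Calls in the carrier family split evenly: of 26 mitochondrial carriers tested, 13 were called higher and 13 lower, against 36.3% and 42.4% of all genes. Beyond 2-fold, 3 were higher and 7 lower, against 9.54% and 18.9% of all genes. MME1, a carrier of magnesium, had 681, 650, 658, 680 and 723 counts in P223L, against 101, 130, 125, 132 and 121 in control. That is a log2 fold change of 2.47 ± 0.08 (adjusted p = 8.7e-11), with narrow and well separated groups. Shawn, a relative of the yeast carrier that supplies manganese to mitochondria, rose by 1.93 ± 0.08. Tpc1, which carries thiamine pyrophosphate, rose by 1.41 ± 0.09, and Rim2, which carries pyrimidine nucleotides, by 0.91 ± 0.05. Dic2, a dicarboxylate carrier paralogue, was listed at 0 in all 5 P223L libraries and at 64.5 to 328 in control. SesB, the main ADP/ATP carrier, chosen after its values were seen, had 99034 to 116795 counts in P223L and 73316 to 84187 in control (log2 fold change 0.38 ± 0.07).

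**Figure D2:**
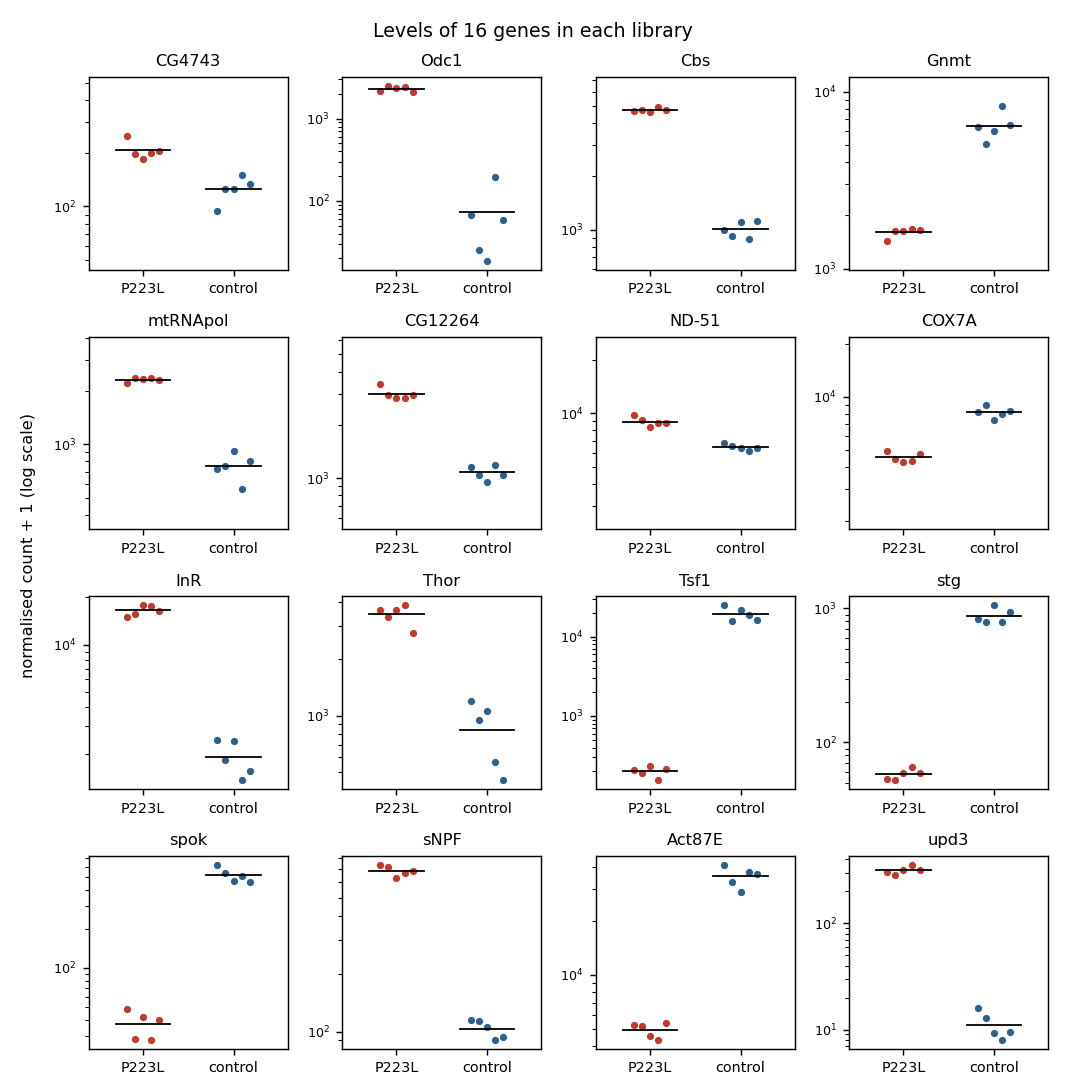
Normalised count + 1 (log scale) of 16 genes in each of the 5 P223L libraries (red, left) and the 5 control libraries (blue, right), with a black line at the mean. In none of the 16 panels do the groups overlap, with Odc1 at 2110 to 2493 in P223L and 17.6 to 192 in control, and COX7A the other way round. The genes were picked from those named in the text, and the groups do not overlap in 68.2% of all genes tested.

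Of the transcripts of the mitochondrial genome, 6 of 13 were called higher, 1 lower and 6 not called, with a median log2 fold change of 0.29. Over all genes, 36.3% were called higher and 42.4% lower. The 6 called higher included the small ribosomal RNA described below. CYTB, the cytochrome b subunit of complex III, had 87128, 90055, 76145, 70213 and 78285 counts in P223L, against 50728, 50872, 44241, 46182 and 43909 in control (log2 fold change 0.77 ± 0.08). ATP8, a subunit of the ATP synthase, rose by 0.99 ± 0.06. COX1, a catalytic subunit of cytochrome c oxidase, had a log2 fold change of 0.23 ± 0.09 (adjusted p = 0.028), a call that was lost when P223L replicate 1, 2 or 5 or control replicate 3 or 5 was left out (adjusted p = 0.0535 to 0.0714). The 1 transcript called lower was ND1, of a complex I subunit, which fell to 6374 ± 783 in P223L, against 8073 ± 427 in control (SD, n = 5 in each group).

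The small ribosomal RNA of mitochondria, mt:srRNA, had 8713, 10785, 10894, 8025 and 6024 counts in P223L, against 2530, 2613, 2309, 1785 and 1784 in control (log2 fold change 2.00 ± 0.17). Ribosomal RNA was depleted before sequencing, and 2 other ribosomal RNA features moved with it. The pseudogene 28SrRNA-Psi:CR41609 had 223358 to 447695 counts in P223L and 86.4 to 1541 in control, and pre-rRNA:CR45856 had 93655 to 144588 in P223L and 54973 to 74876 in control. P223L replicate 5 was the lowest P223L library for all 3. The part of ribosomal RNA depletion in these values was not tested, and the near-identical copies of ribosomal RNA make the pseudogene's count uncertain.

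Nuclear genes of the respiratory chain were mostly lower, and only ND-B8, which averaged 2.21 counts in P223L and 24.9 in control, was called beyond 2-fold. Of 34 nuclear complex I genes, 21 were called lower and 1 higher (median log2 fold change -0.26), and of 35 genes of complexes II to V, 28 were called lower and 0 higher (median -0.45). Of all genes, 42.4% were called lower and 36.3% higher. COX7A, a small subunit of cytochrome c oxidase, had 4312 to 4961 counts in P223L and 7409 to 9038 in control, a log2 fold change of -0.84 ± 0.06 (adjusted p = 4.62e-08). ND-MLRQ, another small subunit that assembles into the chain, stood at 3775 ± 458 in P223L and 6954 ± 708 in control, and ATPsynF of the ATP synthase fell by 0.78. The 1 gene called higher was ND-51, the subunit of complex I that binds NADH, at 8420 to 9722 in P223L and 6139 to 6825 in control. In the tricarboxylic acid cycle 8 of 10 genes were called lower and 1 higher (median -0.31). The largest fall was in Sucb, a subunit of succinyl-CoA ligase, at 1180 to 1583 in P223L and 3117 to 3786 in control, and the 1 increase was in Nc73EF, oxoglutarate dehydrogenase, at a log2 fold change of 0.30 ± 0.06.

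The machinery that expresses the mitochondrial genome was higher. Of 73 mitochondrial ribosomal protein genes, 55 were called higher and 1, mRpL42, lower, with a median log2 fold change of 0.35, and mRpS6 led at 0.92 ± 0.16. Of all genes, 36.3% were called higher and 42.4% lower. Mitochondrial tRNA synthetases were called higher in 9 of 15 cases and lower in 1. Of 12 genes that maintain and transcribe mitochondrial DNA, 9 were called higher and 0 lower, with a median of 0.61. The mitochondrial RNA polymerase gene mtRNApol had 2208, 2376, 2329, 2374 and 2302 counts in P223L, against 728, 757, 918, 561 and 808 in control. Its groups were 3.07-fold apart (log2 fold change 1.64 ± 0.10, adjusted p = 1.84e-08). Tam, the catalytic subunit of the mitochondrial DNA polymerase, rose by 1.07 ± 0.05.

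Chaperones and proteases of mitochondria were called higher in 14 of 19 cases and lower in 3, against 36.3% and 42.4% of all genes. Their median was 0.56. Hsp22, a small heat shock protein of the mitochondrial matrix, had 9780, 9258, 9646, 9700 and 9965 counts in P223L, against 313, 631, 641, 571 and 354 in control. It was 19.3-fold higher in P223L, where its libraries were close together (log2 fold change 4.33 ± 0.18). Hsp60A, the folding chamber of the matrix, had 19758 to 21140 counts in P223L and 6728 to 8945 in control, CG6512, an inner membrane protease of the AFG3 family, rose by 1.19 ± 0.05, and the matrix protease Lon by 1.06 ± 0.06. The paralogues Hsp60B and Hsp60C, known for their roles in the male germ line, went the other way, with Hsp60C at 0 to 3.89 in P223L and 256 to 1012 in control. They moved with the testis list, of which 34 of 37 genes were called lower and 1 higher (median -5.57, loopin-1 at 1.03 to 3.76 in P223L and 899 to 2426 in control). Summed over all 39 testis genes, the counts were 2388 to 2682 in P223L and 9946 to 25853 in control, and 9 of the 39 were at 0 in all P223L libraries. The part of testis content in these falls was not tested.

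Iron-sulfur clusters are built in the matrix on a scaffold from iron and from sulfur taken off cysteine. Of 12 genes of this assembly, 9 were called higher and 0 lower, against 36.3% and 42.4% of all genes. Their median was 0.51, and 3 were higher beyond 2-fold, against 9.54% of all genes. The cysteine desulfurase CG12264 (Nfs1) had 3413, 2933, 2839, 2833 and 2969 counts in P223L, against 1164, 1043, 945, 1193 and 1045 in control. All 5 P223L libraries lay more than 2-fold above every control library (log2 fold change 1.48 ± 0.07, adjusted p = 2.05e-09). The scaffold gene IscU rose by 1.13 ± 0.06, and the ferredoxins Fdx1 and Fdx2, which deliver electrons to it, by 1.53 ± 0.11 and 1.29 ± 0.08.

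**Figure D3:**
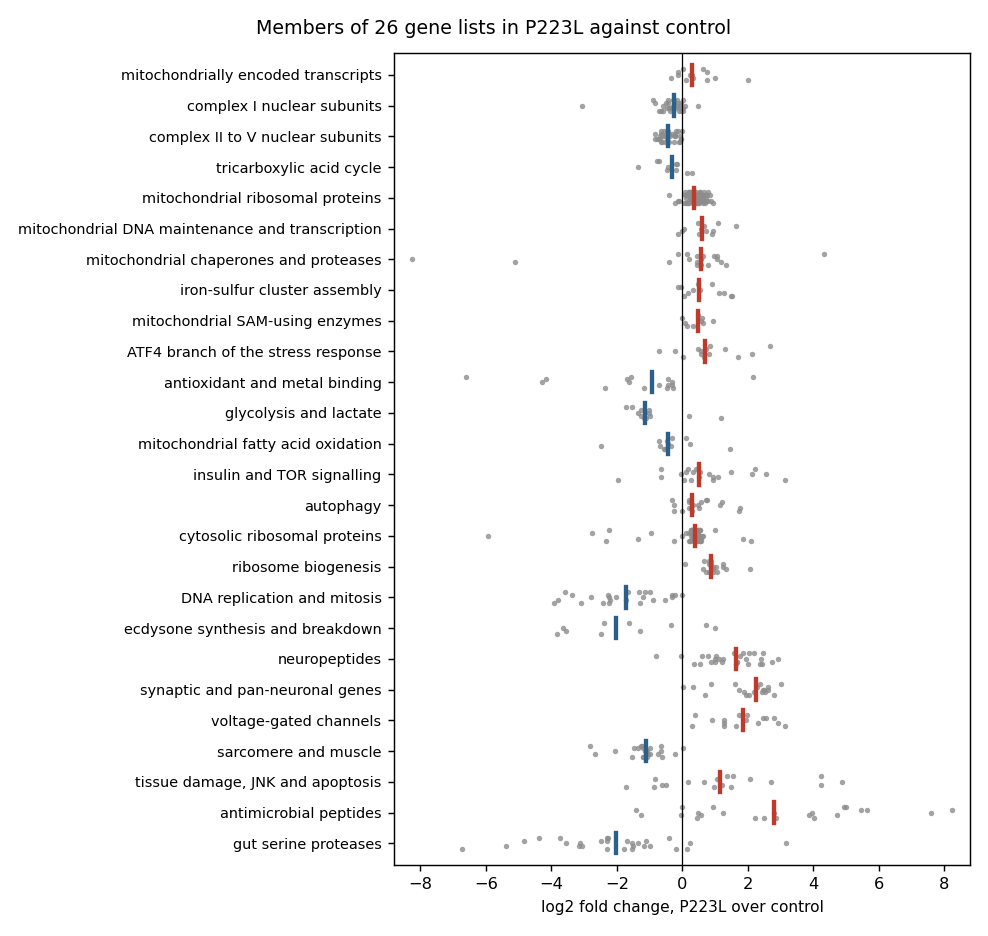
Each grey point is the log2 fold change of P223L over control of 1 tested member of a list, for 26 of the 65 lists, and the bar marks the median (red above 0, blue below). Nuclear respiratory chain, tricarboxylic acid cycle, glycolysis, replication, muscle and gut protease lists have medians below 0, while mitochondrial gene expression, ribosome biogenesis and neuronal lists have medians above 0.

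Of 14 genes of the integrated stress response through the transcription factor ATF4 (crc in the fly), 11 were called higher and 2 lower, with a median of 0.68. Of all genes, 36.3% were called higher and 42.4% lower. Thor, the translation inhibitor 4E-BP, had 3654, 3328, 3649, 3866 and 2766 counts in P223L, against 1194, 941, 1053, 569 and 451 in control. All P223L libraries were above all controls, which themselves varied by more than 2-fold (log2 fold change 2.12 ± 0.23, adjusted p = 3.2e-06). Gadd45, a stress-induced growth arrest gene, rose by 1.70 ± 0.10. The transcript of crc itself had 23829 to 25875 counts in P223L and 23340 to 25518 in control, a log2 fold change of 0.02 ± 0.05 with overlapping groups. AsnS, asparagine synthetase, a target of ATF4 in mammals, was called lower with overlapping groups, at 669 to 883 in P223L and 632 to 1682 in control (log2 fold change -0.72 ± 0.22, adjusted p = 0.0096).

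Of 11 genes of endoplasmic reticulum stress, 3 were called higher and 8 lower (median -0.61), against 36.3% and 42.4% of all genes. The stress sensor Ire1 and its target Xbp1 rose by 0.93 ± 0.05 and 0.46 ± 0.05, and CG10420, a nucleotide exchange factor of the lumenal chaperone, by 1.92 ± 0.10. The folding factors went down: Pdi, protein disulfide isomerase, to 14824 ± 859 in P223L, against 48233 ± 3490 in control, and Hsc70-3, the lumenal chaperone BiP, by 0.81 on the log2 scale (SD, n = 5 in each group).

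Cytosolic heat shock genes did not move as 1 group. Of 17, 9 were called higher and 4 lower (median 0.15), against 36.3% and 42.4% of all genes. Beyond 2-fold, 4 were higher and 2 lower, against 9.54% and 18.9% of all genes. Their log2 fold changes ran from -3.41 to 5.09. Hsp70Ab had 2396 to 10538 counts in P223L and 287 to 3589 in control, so its groups overlapped and its libraries varied widely within each, and reads of the near-identical Hsp70 copies cannot be assigned with certainty. The small heat shock genes Hsp23 and Hsp27 were lower, with Hsp27 at 74.6 to 451 in P223L and 1053 to 1229 in control. Hsc70-4, the constitutive cytosolic chaperone, had 142142 to 149746 counts in P223L and 70262 to 76386 in control (log2 fold change 0.97 ± 0.06).

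Antioxidant and metal-binding genes were called lower in 15 of 16 cases, against 42.4% of all genes. Tsf1, the iron carrier transferrin of the larval blood, had 207, 189, 233, 153 and 214 counts in P223L, against 24875, 15929, 21753, 18880 and 16336 in control. It was 98.1-fold lower in P223L, with a log2 fold change of -6.60 ± 0.14 (adjusted p = 2e-12). MtnB, a metallothionein, fell to 20.4 ± 4.72 in P223L, against 417 ± 81.4 in control, and Cat, catalase, to 13847 ± 592, against 44848 ± 6404 (SD, n = 5 in each group). The 1 increase was in Jafrac1, a cytosolic peroxiredoxin, with 13534 to 15392 counts in P223L and 2231 to 4418 in control (log2 fold change 2.17 ± 0.15).

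Families of detoxification enzymes changed member by member. Among 34 glutathione S-transferases, 9 were called higher and 16 lower, among 80 cytochrome P450s 25 and 36, and among 33 UDP-glycosyltransferases 16 and 12. Of all genes, 36.3% were called higher and 42.4% lower, and the cytochrome P450s lay near these shares. Adjacent genes of the GstD cluster went opposite ways: GstD5 had 1012 to 1209 counts in P223L and 39.3 ± 15.4 (SD, n = 5) in control, while GstD4 had 111 to 136 in P223L and 556 to 1258 in control. GstE1 and GstE9 of the second cluster rose by 2.02 ± 0.21 and 2.21 ± 0.13. Cyp28a5 and Cyp6d4 were 5.00-fold and 5.62-fold higher in P223L, whereas Cyp4d8 and Cyp4d1 were 47.8-fold and 10.7-fold lower. Ugt86Di had 345 to 422 counts in P223L and 20.7 to 44.7 in control.

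Most genes of sugar and fat metabolism were lower. Of 13 genes of glycolysis and lactate formation, 11 were called lower and 1 higher (median log2 fold change -1.13), and 6 fell beyond 2-fold, against a background of 18.9%. Ald, aldolase, had 37182, 36342, 38935, 37777 and 38055 counts in P223L, against 112323, 117461, 105588, 102493 and 112575 in control. The highest P223L library lay far below the lowest control, and the log2 fold change was -1.55 ± 0.06 (adjusted p = 1.56e-10). Pglym78, phosphoglycerate mutase, fell by 1.73. The 1 gene called higher was Hex-A, the hexokinase that traps glucose, at 7892 to 8405 in P223L and 2893 to 4369 in control (log2 fold change 1.18 ± 0.10).

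Of 12 fatty acid oxidation genes, 9 were called lower and 2 higher, against 42.4% and 36.3% of all genes. Whd, the carnitine palmitoyltransferase that admits fatty acids to mitochondria, was one of the 2, at 5277 to 5996 in P223L and 1628 to 2500 in control (log2 fold change 1.47 ± 0.11). CG5009, an acyl-CoA oxidase of the peroxisomal type, fell by 2.49. Of 23 genes of fat synthesis, storage and release, 14 were called lower and 7 higher, with a median of -0.69. FASN1, fatty acid synthase, stood at 29618 to 35813 in P223L and 65841 to 114100 in control. The lipid-binding protein gene fabp had 3808, 3477, 3284, 3146 and 3394 counts in P223L, against 33967, 32474, 28556, 46092 and 37191 in control (log2 fold change -3.37 ± 0.11), with a wide gap between the groups. Apolpp, the lipoprotein that carries lipid in the larval blood, fell to 160979 ± 3005 in P223L, against 526024 ± 37145 in control, and Mtp, which loads it with lipid, fell by 1.77 (SD, n = 5 in each group).

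The lipase genes Lip4 and bmm were among the increases. Lip4 had 2577, 2482, 2531, 2520 and 2570 counts in P223L, against 289, 448, 181, 594 and 302 in control. The P223L libraries were nearly equal while the controls varied more (log2 fold change 2.92 ± 0.24, adjusted p = 2.14e-07). Bmm, the main triglyceride lipase of the fat body, had 2227 to 2671 counts in P223L and 711 to 1363 in control (log2 fold change 1.28 ± 0.14).

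Genes of insulin and TOR signalling were called higher in 14 of 21 cases and lower in 2 (median 0.51). Of all genes, 36.3% were called higher and 42.4% lower. InR, the insulin receptor and a target of the factor foxo that insulin holds back, had 15073, 15631, 17842, 17738 and 16464 counts in P223L, against 2454, 1828, 2429, 1352 and 1545 in control. It was 8.61-fold higher in P223L (log2 fold change 3.14 ± 0.15, adjusted p = 1.49e-09). ImpL2, a secreted protein that binds and inhibits insulin-like peptides, had 4467 to 5463 counts in P223L and 920 to 1349 in control, and the adaptor gene Lnk rose by 1.09 ± 0.10. Insulin-like peptide genes went both ways. Ilp5 and Ilp6 were the 2 genes of the list called lower: Ilp5, from brain neurons, stood at 12.8 ± 3.62 in P223L and 51.5 ± 8.95 in control, and Ilp6, from the fat body, at 384 ± 50.7 in P223L and 616 ± 143 in control (SD, n = 5 in each group). At low counts Ilp7 and Ilp8, chosen after their values were seen, were called higher: Ilp7 had 10.8 to 22 counts in P223L and 0 to 9.6 in control (adjusted p = 0.00249), and Ilp8, a peptide released by damaged discs, had 10.9 to 20.6 in P223L and 1.89 to 10.6 in control (adjusted p = 0.00642). Of 20 autophagy genes, 13 were called higher and 3 lower, led by the kinase gene Atg1 at 3244 to 3550 in P223L and 888 to 1080 in control and by Atg101, a partner of that kinase, at a log2 fold change of 1.72 ± 0.06.

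The genes that build ribosomes were higher while those that copy DNA were lower. Of 19 ribosome biogenesis genes, 18 were called higher and 0 lower, with a median of 0.88, and of 90 cytosolic ribosomal protein genes 81 were called higher and 7 lower, with a median of 0.39. Of all genes, 36.3% were called higher and 42.4% lower. Non1, a GTPase of the large subunit's assembly, rose to 45521 ± 1158 in P223L, against 11028 ± 1399 in control (SD, n = 5 in each group). Nmd3, which exports that subunit from the nucleus, rose by 1.34 ± 0.07 and RpI135, a subunit of RNA polymerase I, by 1.24 ± 0.07. The assembly factors RpL24-like and RpL7-like rose by 2.09 ± 0.05 and 1.85 ± 0.05, whereas RpL5, a structural protein, rose by 0.64 ± 0.06. RpL10Aa, a duplicate of a ribosomal protein gene, was listed at 0 in all P223L libraries and at 42.9 to 97.8 in control. Cytosolic tRNA synthetases were called higher in 13 of 20 cases and lower in 4, with ValRS at 1.15 ± 0.07.

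None of 25 genes of DNA replication and mitosis was called higher and 24 were called lower, 15 of them beyond 2-fold. Of all genes, 42.4% were called lower and 18.9% lower beyond 2-fold. Stg, the phosphatase that starts mitosis, had 51.9, 51.1, 58.0, 64.7 and 58.2 counts in P223L, against 831, 797, 1055, 787 and 935 in control. It was 15.5-fold lower in P223L, with no control library near the P223L range. The mitotic kinase gene polo stood at 89.3 to 124 in P223L and 901 to 1230 in control.

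Ecdysone, the moulting steroid, is made in the prothoracic gland by a set of P450 enzymes. Of 10 genes of its synthesis and breakdown, 8 were called lower and 2 higher, against 42.4% and 36.3% of all genes. Their median log2 fold change was -2.02. Spok, an early enzyme of the pathway, had 47.4, 27.3, 40.9, 26.8 and 38.8 counts in P223L, against 622, 536, 467, 512 and 462 in control. No P223L library came near any control library, and the log2 fold change was -3.83 ± 0.17 (adjusted p = 6.45e-10). The late enzymes phm and sad fell by 2.48 and 3.65, while Cyp18a1, which breaks the hormone down, had a log2 fold change of 1.00 ± 0.15.

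Of 16 factors that respond to ecdysone, 6 were called higher and 7 lower (median 0.01), shares near those of all genes (36.3% and 42.4%). The nuclear receptor gene Eip78C rose by 2.87 ± 0.12, its relative Eip75B had 6648 to 7731 counts in P223L and 2225 to 2873 in control, and the repressor gene Blimp-1 by 2.11 ± 0.14. Eip93F, a factor of the metamorphic programme, stood at 9.97 to 22.6 in P223L and 72.9 to 146 in control, and br, which opens that programme, at 1385 to 1930 in P223L and 4458 to 5759 in control. Eip74EF fell by 1.96. Of 9 genes of the juvenile hormone pathway, 4 were called higher and 5 lower, with a median of -1.41. Beyond 2-fold, 0 were higher and 4 lower, against 9.54% and 18.9% of all genes. The epoxide hydrolase gene Jheh2 fell to 1290 ± 109 in P223L, against 10318 ± 1793 in control (SD, n = 5 in each group). The receptor gene Met and its target Kr-h1 rose by 1.02 ± 0.08 and 0.69 ± 0.07.

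Neuronal transcripts were higher across classes. All 16 voltage-gated channel genes, 19 of 20 synaptic and pan-neuronal genes, 9 of 10 nicotinic acetylcholine receptor subunits and 25 of 29 neuropeptide genes were called higher, against 36.3% of all genes. Their median log2 fold changes were 1.85, 2.24, 2.51 and 1.63. The neuropeptide gene sNPF had 739, 723, 630, 669 and 688 counts in P223L, against 113, 113, 105, 89.5 and 93.4 in control (log2 fold change 2.74 ± 0.09, adjusted p = 6.61e-11). Dh31 and Crz, 2 further peptide genes, rose by 2.44 ± 0.11 and 2.46 ± 0.18, and CCHa2, a peptide made mostly by the fat body and gut, was the 1 called lower, by 0.79.

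Rdl, a GABA receptor subunit, and Snap25, part of the vesicle fusion machinery, had log2 fold changes of 3.00 ± 0.13 and 2.79 ± 0.09. Syn, which clusters synaptic vesicles, rose by 2.60 ± 0.15, the calcium channel gene cac by 2.93 ± 0.14 and the potassium channel gene eag by 2.79 ± 0.12. The receptor subunit gene nAChRalpha5 had 1475 to 2032 counts in P223L and 200 to 335 in control, and nAChRbeta3 was the 1 subunit called lower (117 to 145 in P223L and 267 to 398 in control). The neuronal marker elav rose by 0.70 ± 0.06. Summed counts of the 20 synaptic genes were 52160 to 64796 in P223L and 18870 to 22661 in control. Glial genes were called higher in 8 of 10 cases and lower in 1, against 36.3% and 42.4% of all genes, with repo at 1.55 ± 0.11. Of 8 neural progenitor genes, 3 were called higher and 2 lower (median -0.12), so the share called higher was near that of all genes. Summed counts of the progenitor list were 8642 to 9514 in P223L and 7108 to 8230 in control. Its largest fall was in dpn, a factor of neural stem cells, at 20.2 to 35.9 in P223L and 78.9 to 103 in control.

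Muscle transcripts were lower. Of 24 genes, 22 were called lower and 0 higher, against 42.4% and 36.3% of all genes, with a median of -1.12. Act87E, a muscle actin, had 5254, 5171, 4559, 4339 and 5416 counts in P223L, against 40927, 32778, 28872, 37469 and 36611 in control. Its log2 fold change was -2.83 ± 0.09 (adjusted p = 7.86e-11), and every P223L library lay far below every control. Mlp60A, a sarcomere scaffold gene, fell by 2.67, bt, a titin-like kinase gene, by 1.48, and Mhc, the muscle myosin, by 1.21.

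Of 20 genes of imaginal disc patterning, 8 were called higher and 10 lower, against 36.3% and 42.4% of all genes: nub, a wing factor that is also active in other tissues, had 2213 to 2542 counts in P223L and 478 to 731 in control, while rn and eya fell by 2.67 and 2.02. Of 18 genes of tissue damage, JNK signalling and apoptosis, 12 were called higher and 5 lower, with a median of 1.14. The cytokine gene upd3 had 300, 283, 319, 353 and 314 counts in P223L, against 15, 11.8, 8.34, 6.97 and 8.51 in control (log2 fold change 4.87 ± 0.19, adjusted p = 2.82e-10). It was well detected in every P223L library and barely in control. The related cytokine gene upd2 stood at 51.2 to 73.1 in P223L and 0 to 8.14 in control. Ets21C, a stress-induced factor, rose by 4.24 ± 0.14, and Socs36E, a feedback inhibitor of the pathway that these cytokines switch on, had 4221 to 4677 counts in P223L and 560 to 881 in control. Egr, the ligand of the tumour necrosis factor family, fell by 0.87.

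Antimicrobial peptide genes were called higher in 16 of 23 cases and lower in 2, and 13 rose beyond 2-fold, against 9.54% of all genes. CG15068, of the short Bomanin family, had 800, 872, 796, 924 and 787 counts in P223L, against 3.44, 1.08, 1.18, 1.17 and 2.90 in control. It was near 0 in every control and its log2 fold change was 8.22 ± 0.23 (adjusted p = 2.41e-11). CG16836, of the same family, stood at 45.4 to 65.6 in P223L and 0 to 0.964 in control. DptB, a diptericin, had 324 to 692 counts in P223L and 2.84 to 21.9 in control. BaraA1 varied between 181 and 1167 in P223L and was listed at 0 in 3 controls, and Drs, drosomycin, rose by 2.21 ± 0.44.

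Other immune lists held more genes called lower than higher, as did all genes tested (42.4% lower and 36.3% higher). TotA, a stress peptide of the fat body, had 5.28, 8.56, 3.21, 3.00 and 4.58 counts in P223L, against 6580, 3605, 2935, 3120 and 5243 in control, and 2 of 3 tested Turandot genes were called lower. Of 12 recognition proteins for peptidoglycan, 8 were called lower and 3 higher: PGRP-SC2, an amidase of the gut, stood at 253 to 349 in P223L and 3018 to 5074 in control, and PGRP-LF, a membrane-bound inhibitor, rose by 1.42 ± 0.16. Of 17 hemocyte and basement membrane genes, 10 were called lower, 2 higher and 5 not called, with the prophenoloxidase gene PPO1 at 350 to 483 in P223L and 6927 to 20528 in control and Pxn at 721 to 900 in P223L and 6560 to 7874 in control.

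The storage proteins of the larval blood took up 0.000506% of all counts in P223L and 11.1% in control (Lsp1alpha, Lsp1beta, Lsp1gamma and Lsp2), and their loss made up 44.7% of the difference in summed counts between the groups. Lsp1gamma had 52.8, 53.1, 64.9, 157 and 56.3 counts in P223L, against 1357280, 1230310, 1136290, 1205760 and 1189120 in control. The other large falls in count were in apolpp, Mhc, bt, Act57B and Argk, the arginine kinase of muscle, which had 26110 to 32049 counts in P223L and 203494 to 220963 in control. The largest rises in count, apart from the ribosomal RNA features, Hsc70-4, Non1, COX1 and CYTB, were in the elongation factor genes Ef1alpha48D (log2 fold change 0.26 ± 0.08) and EF2 (0.36 ± 0.06), in Muc26B, which encodes a mucin, and in CG6933. Muc26B stood at 39263 to 63360 in P223L and 7644 to 10577 in control.

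In the gut, 25 of 28 serine protease genes were called lower and 1 higher, against 42.4% and 36.3% of all genes. The 1 called higher was alphaTry, a trypsin, at 29843 to 40065 in P223L and 2315 to 4906 in control, whereas Jon66Ci, another protease, had 2221 to 3208 counts in P223L and 106502 to 121119 in control. Of 5 lysozymes 4 were called lower and 1 higher: LysX rose to 79.6 to 126 in P223L, against 3.56 to 27.9 in control, and LysS fell by 2.96. Of 26 genes of chitin turnover, 22 were called lower and 2 higher, and the chitinase gene Cht9 fell by 4.53. Of 10 Malpighian tubule genes, 6 were called lower and 2 higher, and Uro, a urate oxidase, fell by 3.48. Of 5 tracheal genes, 2 were called higher and 2 lower (median -0.06), near the shares of all genes (36.3% and 42.4%). Among them trh, the factor that founds the tracheal fate, rose by 1.14 ± 0.08, and btl and pio, named after their values were seen, fell by 0.89 and 0.83. Of 6 clock genes 3 were called in each direction, against the same shares, with tim higher by 1.46 ± 0.09 and Clk lower by 4.21.

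Lcp and Cpr cuticle genes moved in both directions, but mostly downward. Of 14 Lcp genes 3 were called higher and 10 lower, and of 48 Cpr genes 11 and 28, against 36.3% and 42.4% of all genes. Beyond 2-fold, 3 Lcp genes were higher and 10 lower, and 2 Cpr genes were higher and 25 lower. The shares over all genes were 9.54% and 18.9%. Median log2 fold changes were -6.72 for Lcp and -1.75 for Cpr genes. Lcp9 was listed at 0 in 4 P223L libraries and at 4.09 in replicate 4, against 21924 to 38367 in control. In the same family Lcp65Ag3 rose to 15928 to 19241 in P223L, against 306 to 3174 in control, and replicate 4 was the highest control library. Its near-identical neighbours make its count uncertain. TwdlO had 2119, 2121, 1794, 1722 and 1880 counts in P223L, against 2.29, 6.4, 7.02, 288 and 2.82 in control. The Cpr genes Cpr62Bb and Cpr47Ec moved apart in the same way, with Cpr62Bb at 97.4 to 112 in P223L and 0 to 16 in control, and a log2 fold change of -7.32 ± 0.18 for Cpr47Ec. Among pigment genes, y, for black melanin, had 256 to 306 counts in P223L and 0 to 30.3 in control, cn, of the brown eye pigment, rose by 2.80 ± 0.13, and yellow-e fell by 4.90. The eye pigment transporter gene w, which also marks many transgenes, had 822, 611, 194, 404 and 636 counts in P223L, against 15.9, 5.31, 23.4, 3.47 and 5.64 in control. Its mean was 1738 in SAMC-null and 267 in the milder I172G line, so all 3 engineered lines stood above control.

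Of 9 glue genes of the salivary gland, 6 were called lower and 3 higher, against 42.4% and 36.3% of all genes. Sgs5 was listed at 0 in all P223L libraries and at 741 to 5995 in control, while ng2, from the family expressed before glue, had 2106 to 2851 counts in P223L and 489 to 1101 in control. Odorant-binding proteins were called higher in 7 of 21 cases and lower in 8, near the shares of all genes (36.3% and 42.4%). Among them, Obp99b stood at 1.08 to 16.5 in P223L and 108178 to 205815 in control. Obp44a was lower by 3.00 and Obp83cd higher by 3.28 ± 0.29. All 11 tested genes of the Y chromosome were called lower beyond 2-fold, along with the testis list given above.

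The 15 largest increases also held genes of little known function whose counts were far lower in control. Phu, an alkaline phosphatase-like gene, had 3105, 3166, 2932, 2584 and 1762 counts in P223L, against 2.28, 14.9, 5.85, 13.9 and 7.52 in control (log2 fold change 8.28 ± 0.37). CG42815 had 187 to 282 counts in P223L and was listed at 0 in all controls. CG43117 stood at 3878 to 4392 in P223L and 3.58 to 201 in control, and CG12480 at 2388 to 3480 in P223L and 3.52 to 106 in control. In CG13215, CG31300 and CG32189 the log2 fold changes were 6.82 ± 0.59, 6.71 ± 0.29 and 6.51 ± 0.48, and CG32189 shares much of its sequence with its neighbour CG32188. Among the largest decreases, CG17105 and CG42500 had means of 0.214 and 4.61 in P223L and of 25918 and 17124 in control.

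Some genes were near 0 in one group and abundant in the other. A total of 31 genes had a mean under 10 in P223L and of at least 1000 in control, and 17 had a mean of at least 100 in P223L and under 10 in control. One of the 17 was lin-28, chosen after its values were seen, an RNA-binding regulator of developmental timing that represses let-7 microRNAs. It had 258, 222, 219, 242 and 206 counts in P223L, against 6.89, 5.37, 5.93, 3.48 and 3.78 in control (log2 fold change 5.27 ± 0.19, adjusted p = 1.58e-10).

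**Figure D4:**
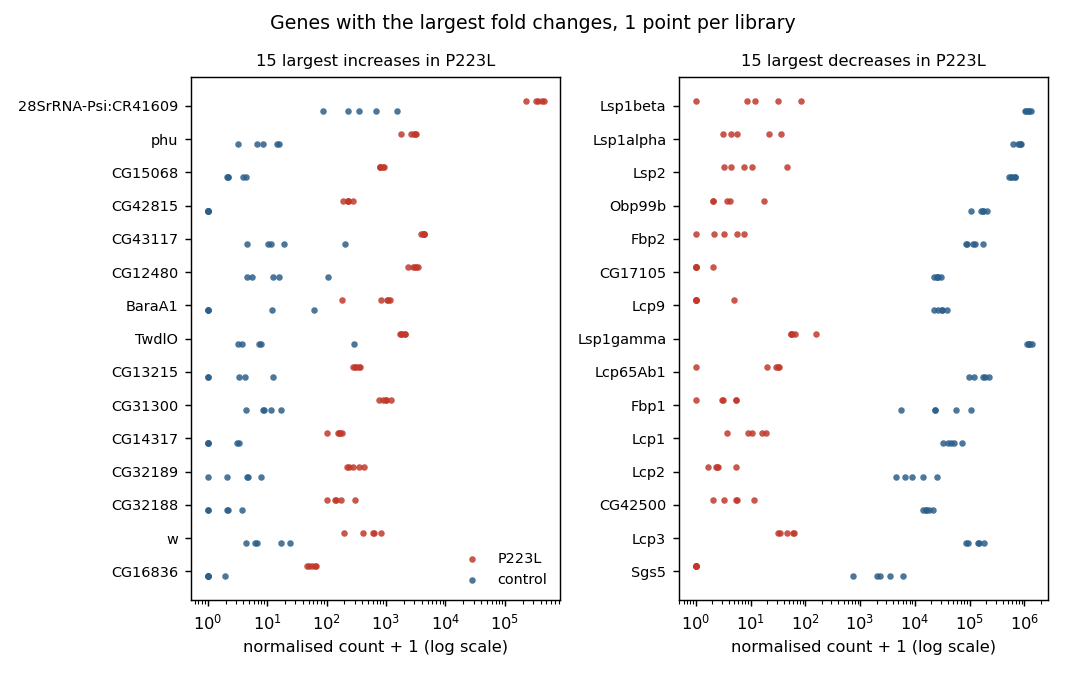
Normalised count + 1 (log scale) in each P223L library (red, upper row of a gene) and each control library (blue, lower row) for the 15 largest increases (left) and the 15 largest decreases (right) by log2 fold change. Control replicate 4 is the highest control for TwdlO (288) and CG12480 (106), and Sgs5 is at 0 in all P223L libraries.

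Set directly against SAMC-null, P223L differed in fewer genes. Of 11168 genes tested, 2500 were called higher in P223L (22.4%) and 2798 lower (25.1%), but only 127 (1.14%) and 65 (0.582%) beyond 2-fold. The number of calls depended on the fit: with all 4 groups in 1 fit it was 1881 higher and 1852 lower. The direction within lists was uniform for respiration: all 33 complex I genes and all 35 genes of complexes II to V were called higher in P223L, with median log2 fold changes of 0.51 and 0.61. As mean ± SD over 5 libraries a group, COX7A had 4566 ± 285 counts in P223L and 3495 ± 286 in SAMC-null, and ND-51 had 8983 ± 488 in P223L and 6600 ± 241 in SAMC-null. Muscle genes were called higher in 22 of 23 cases, with Mhc at 255884 ± 12373 in P223L and 112389 ± 2826 in SAMC-null (log2 fold change 1.19 ± 0.05).

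Synaptic, autophagy and damage lists had medians slightly below 0 in P223L against SAMC-null. Of 20 synaptic and pan-neuronal genes 17 were called lower and 0 higher (median -0.28), of 20 autophagy genes 12 were lower and 2 higher (median -0.23), and of 17 damage genes 10 were lower and 3 higher (median -0.40). Upd3 had 314 ± 26.1 counts in P223L and 511 ± 38.7 in SAMC-null (n = 5 a group, SD), and Atg1 had 3371 ± 119 in P223L and 5088 ± 206 in SAMC-null. Members of these lists also went the other way: the cell death genes grim and skl, chosen after their values were seen, were higher in P223L beyond 2-fold, with grim at 65.9 to 83.9 counts in P223L and 5.32 to 17 in SAMC-null and skl at 43.6 to 54.9 in P223L and 11.5 to 16.8 in SAMC-null, as was Atg8b (log2 fold change 6.84 ± 0.30). Outside these lists, the pigment gene y had 277 ± 20.9 counts in P223L and 1009 ± 63.0 in SAMC-null. Among 17 cytosolic heat shock genes, 9 were called lower and 1 higher (median -0.86). Some list members set P223L and SAMC-null further apart: GstD5 had 189 ± 27.2 counts in SAMC-null (log2 fold change of P223L over SAMC-null 2.54 ± 0.09), Cyp28a5 had 7764 ± 415 (1.58 ± 0.05), and Ilp6 had 1365 ± 129 (-1.83 ± 0.09).

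A few genes set the lines apart by far more. CG14317 had 102, 157, 170, 180 and 160 counts in P223L, a mean of 0.955 in SAMC-null and 0 to 2.35 in control, so it was well detected in P223L but not in these other groups (log2 fold change over SAMC-null 6.38 ± 0.30, adjusted p = 2e-10). The same held for plh, at means of 94.4 in P223L, 0.469 in SAMC-null and 2.24 in control. By contrast Atg8b, a male germ line form of the autophagy protein Atg8, CG5623, CG32071 and nsr were near 0 in SAMC-null and present in control, with nsr at means of 365 in P223L, 6.83 in SAMC-null and 313 in control. CG5050 and CG13244 were also higher in P223L than in SAMC-null, by 5.31 and 5.25 on the log2 scale. The anion channel gene pHCl and its neighbour CG32150 on chromosome 3L, both chosen after their values were seen, stood far above both groups in P223L: pHCl had 9118 to 10491 counts in P223L, 388 ± 51.4 (SD, n = 5) in SAMC-null and 38.8 to 1615 in control, and CG32150 had 2898 to 3476 in P223L, 138 ± 18.1 in SAMC-null and 18.2 to 462 in control.

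The largest decreases against SAMC-null were in the receptor gene mthl8, CG7707, the sperm protein gene S-Lap1, copies of the histone gene His1, CG12470, CG14644 and the odorant receptor gene Or82a. Mthl8 had 0 to 3.24 counts in P223L, 308 to 413 in SAMC-null and 34.5 to 279 in control. CG7707 was listed at 0 in all P223L libraries, at 72.4 to 157 in SAMC-null and at 32.6 to 119 in control. Or82a and CG14644, which lie close together on chromosome 3R, stood at 2.21 to 6.63 and 0.962 to 6.4 in P223L and at 105 to 144 and 93.6 to 122 in SAMC-null.

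**Figure D5:**
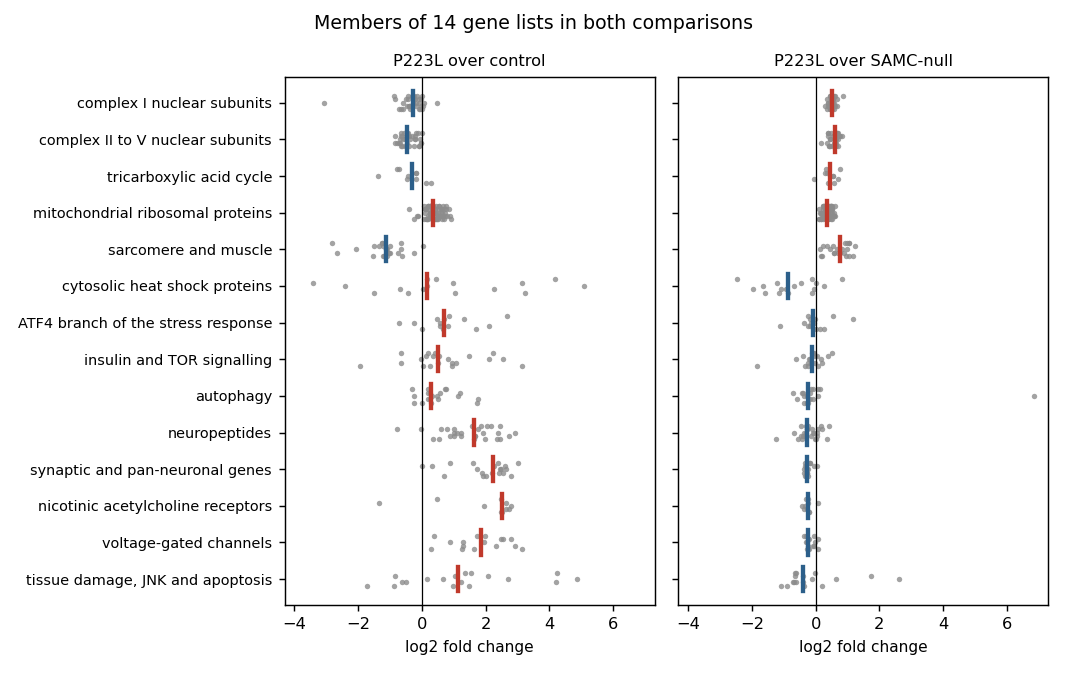
Log2 fold changes of the tested members of 14 lists (grey points, with the median as a red bar above 0 or a blue bar below), for P223L over control (left) and P223L over SAMC-null (right). The medians of complexes I to V and of muscle genes lie below 0 on the left and above 0 on the right, and those of the neuronal lists lie far above 0 on the left and slightly below 0 on the right.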

How the data were processed

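Ribosomal RNA-depleted RNA of whole larvae was sequenced as 75-base read pairs, per the labels. The tools Salmon 0.11.3 and DESeq2 1.26.0 and the build BDGP6 are named in the submitters' processing notes. The authors deposited 1 table per line against control, whose signal columns are normalised read counts per gene and library on 1 scale for all 20 libraries. The authors' deposited table also holds log2 fold changes, a score (the Wald statistic), p-values and adjusted p-values. Divided by the value of 1 read, the sums gave about 23481253 to 35204448 reads per library, where the labels state 3000000. Only 56.1 to 80.4% of low values lay within 0.1 of a whole number of reads, so no count test was used.

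P223L was compared with control and with SAMC-null, 5 libraries each, with limma 3.58.1 in R 4.3.3 (lmFit and eBayes with an intensity trend) on log2(value + 1). A gene entered a test where 5 or more of its 10 libraries reached a value of 10. Two-sided p-values took a Benjamini-Hochberg adjustment across every gene in the test, with 0.05 as threshold. Treat tested changes beyond 2-fold. Fold changes of genes near 0 depend on the added 1. The fit was tested on simulated data. Tables and figures were made in Python 3.11.15 with matplotlib 3.10.9, numpy 2.4.6 and pandas 2.3.3. Coordinates are those of Ensembl release 115 (BDGP6.54), matched by identifier.

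The members and the 65 gene lists were chosen with earlier results of these data known. No list was tested: counts and medians are given beside those of all genes. Named genes are CG4743, the 15 largest increases and decreases (mean of at least 50, no overlap), the 10 largest rises and falls in count, up to 4 members of a list in each direction, the first members of lists, and the 8 largest changes each way against SAMC-null. Alternatives were treat, the authors' adjusted p, 1 fit of all 4 groups, a block for the replicate number, leaving out each library, rescaling by median ratios, pseudocounts of 0.5 and 4, and a minimum value of 50 or none. I172G libraries entered only the fit of all 4 groups and the mean given for w.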

Additional observations from a re-analysis of the deposited data

Results flagged for a closer look

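Of 432 groups of 5 libraries (216 genes in P223L and control), 21 had 1 library set apart from the other 4 by Dixon's criterion (gap over range above 0.71). Chance alone sets apart about 1 in 20 groups. Control replicate 4 accounted for 6 of the 21, P223L replicates 1 and 4 for 4 each, and P223L replicate 3 for 0.

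In control replicate 4, GstE9 (1968) and TwdlO (288) were above the other 4 controls, and cac (228), CG6933 (10883), CG5623 (11.6) and CG12470 (115) were below them. Among the other controls, mthl8 was low in replicate 1 (34.5), alphaTry was low in replicate 2 (2315), egr was low in replicate 3 (798) and CG16836 was detected in replicate 5 alone (0.964).

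In P223L replicate 1, Tpc1 (1338) and CG12264 (3413) were above the other P223L libraries, and Gnmt (1434) and CG14317 (102) were below them. In P223L replicate 4, Sam-S (23618) and Lsp1gamma (157) were high, Lcp9 (4.09) was the 1 value above 0, and BaraA1 (181) was low. Cat was low in P223L replicate 2 (12825), and in P223L replicate 5 nub was high (2542) and CG17105 was the 1 value above 0 (1.07).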

How the results depend on the processing

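Between 4143 and 4571 genes were called higher in P223L than in control, and between 4131 and 5673 lower, under either other pseudocount, no filter, a filter of 50, rescaling by median ratios, the replicate block and 1 fit of all 4 groups. Leaving out 1 library gave 9318 to 9711 calls (4265 to 4462 higher, 5053 to 5249 lower). Testing against a 2-fold change gave 3468 calls (1165 higher, 2303 lower), and the authors' deposited table, with the same kind of threshold, gave 3786 (1170 higher, 2616 lower). Against SAMC-null, treat gave 192 calls (127 higher, 65 lower), and 1 fit of all 4 groups gave 1852 lower, against 2798. The rise of CG4743 kept its size but did not pass beyond 2-fold, at a log2 fold change of 0.73 (adjusted p = 1.0 by treat) and of 0.73 in the authors' deposited table (adjusted p = 1.0). It was 0.63 to 0.80 when 1 library was left out.

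The replicate numbers do not pair the samples: same-numbered P223L and control libraries had correlations of -0.143 to 0.054 in their deviations from the group means. With the replicate block, 4328 genes were called higher and 5057 lower against control (9385 in all), 2564 higher and 2874 lower against SAMC-null (5438 in all), and the adjusted p of CG4743 was 0.00227. No call of a named gene changed with the block.

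Among the named genes, COX1 lost its call without a filter (adjusted p = 0.0728) and when any of 5 libraries was left out, and Atg8b was called higher than control (log2 fold change 0.61, adjusted p = 0.0401) without P223L replicate 1. Of 228 named results, 52 lost their call when tested beyond 2-fold. That test also moved 90 of 130 counts within lists by over 1.5 times, while no filter moved 7, a filter of 50 moved 11 and leaving out a library moved 1 to 4. With no filter, antimicrobial peptides had 6 called lower, and odorant-binding proteins had 12 called higher and 14 lower, and with a filter of 50 the carriers had 8 called lower. The 1 testis gene called higher was lost with the block and when any of 8 libraries was left out. The depth of each library, in whole reads, could not be recovered, so values under 10 are of low precision.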
